A study of Gallus gallus with 8 samples.

Results

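The genes described here have names that parts of the cilium often carry, and were compared between the utricle and the cochlea of the chick. They were chosen by name: every gene whose symbol in the deposited workbook starts with DNAH, DNAI, DNAL, TEKT, RSPH, SPAG, IFT, BBS or CCDC, and CAPSL. By this rule 132 of the 14403 named genes on the array are called cilium genes here, though not all of them serve cilia. Of these 132, 88 were bright enough to test, among 8352 tested genes in all. A gene was tested where the log2 signal of a probe set exceeded 4 on 4 or more of the 8 arrays, and its probe set with the highest mean signal stands for it. The CCDC prefix only says that a protein has a coiled coil, and many such proteins have no known place in cilia, so the 60 tested CCDC genes are given apart from the 28 others.

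The utricle is a balance organ and the cochlea the hearing organ of the inner ear. Sensory epithelia with hair cells and supporting cells were microdissected from chick embryos of day 20 to 21, incubated at 38 °C. Each tissue has 4 Affymetrix arrays that the labels call biological replicates, and each array holds RNA pooled from 10 to 20 epithelia, labelled from 0.08 μg of total RNA by a nonstandard protocol. No group carries a genetic change or a treatment, and the utricle and the cochlea differ only by tissue in the labels. In such bulk samples, fewer cells of a type and less RNA per cell cannot be told apart.

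A cilium is a rod of microtubule doublets, the axoneme, that grows from a basal body. In motile cilia, outer and inner dynein arms on the doublets are the motors, radial spokes and a central pair of microtubules regulate them, and tektins lie within the doublets. Every cilium, motile or not, is built and kept up by intraflagellar transport, in which the IFT-B complex goes with movement to the tip and the IFT-A complex with the return, while the BBSome helps to carry membrane proteins. Hair cells can bear a kinocilium with an axoneme beside their stereocilia, and supporting cells can bear a primary cilium. The roles given below are known mainly from human, mouse and algal relatives of these genes.

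Of the 28 cilium genes that are not CCDC genes, 22 were higher in the utricle, 2 were higher in the cochlea and 4 were not called. In the limma fit over all tested genes, 27.2% of genes had the higher signal in the utricle and 27.3% had it in the cochlea at an adjusted p under 0.05. The cilium genes were chosen with earlier results of these data known, so setting their shares beside these is descriptive only. Among these 28 genes the shares were 78.6% for the utricle and 7.14% for the cochlea. Their median log2 difference, utricle minus cochlea, was 1.03, against 0.00 for all tested genes. Over all 88 cilium genes the counts were 45 higher in the utricle (51.1%), 18 higher in the cochlea (20.5%) and 25 not called, with a median of 0.33. A difference of at least 2-fold was called in the utricle's favour for 24 of the 88 genes, where all genes gave 11.1%, and in the cochlea's favour for 5 of the 88, where all genes gave 9.99%. The arrays of the tissues did not overlap for 43 of the 88 genes with the utricle above (25.2% of all genes) and for 15 with the cochlea above (25.9% of all genes), and they overlapped for 30. One gene passed the signal filter through the cochlea only (CAPSL) and a pair through the utricle only (SPAG6 and CCDC37), and for these a difference was bound to appear. Here, only means that no array of the other tissue exceeded 4. DNAH5 and CCDC125 (called for the utricle) and CCDC73 (called for the cochlea) had some arrays of the dimmer tissue under 4. The dimmer tissue alone would not have passed them, so the filter favoured a difference there. Some genes of the lists below are in the same position.

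**Figure D1:**
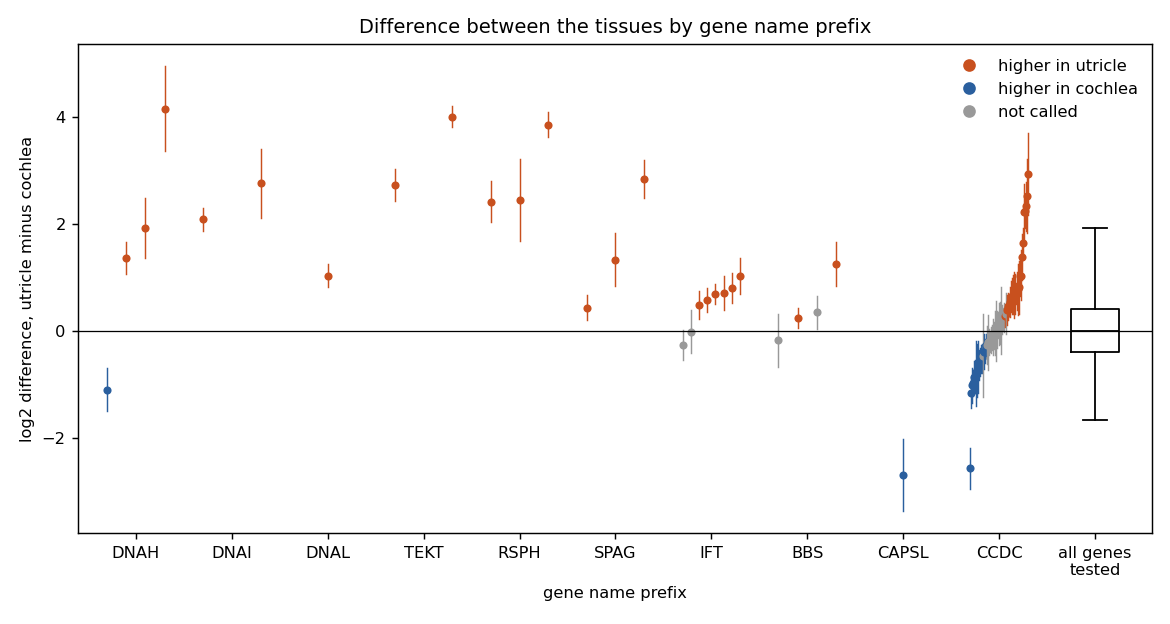
Log2 difference, utricle minus cochlea, of each tested cilium gene (point) with its 95% confidence interval (line), by gene name prefix, and at the right all 8352 tested genes (box: quartiles and median; whiskers: the 5th and 95th percentiles). The tested genes of the prefixes DNAH, DNAI, DNAL, TEKT, RSPH and SPAG lie above 0 but for DNAH1, the IFT and BBS genes lie nearer to 0, and the CCDC genes spread to both sides.

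The 4 markers given with this gene group did not move together. TEKT1 and RSPH1 were higher in the utricle, whereas CCDC40 and CAPSL were higher in the cochlea. The values of each are given with its own family below.

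On the quality of the arrays, the share of probe sets with a log2 signal above 4 ran from 41.6% to 41.8% on the utricle arrays and from 41.0% to 41.5% on the cochlea arrays. Pearson correlations were taken across the 16223 probe sets that passed the filter, with or without a gene name, which are not independent replicates. Utricle arrays correlated with each other at 0.978 to 0.987, and cochlea arrays at 0.983 to 0.991. Pairs of unlike tissues gave 0.857 to 0.884. CALB1, which was strong on every cochlea array (15.33 to 15.42), was near the lowest signal on utricle arrays 1 and 4 (2.49 and 2.50) but read 7.47 on utricle array 2 and 6.89 on utricle array 3. Without utricle arrays 2 and 3, the limma fit called 40 of the 88 cilium genes for the utricle and 15 for the cochlea, where all 8352 genes gave 1919 and 1882. The number of arrays limits the precision, and levels of different probe sets are not comparable with each other.

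The outer dynein arm genes of the DNAH and DNAI prefixes were all higher in the utricle: 4 of 4 tested, with log2 differences of 1.91 to 4.15. This count and the family counts below stand beside 27.2% of all tested genes called for the utricle and 27.3% called for the cochlea. DNAH5, a heavy chain and thus a motor subunit, read 7.68, 8.0, 7.82 and 8.68 log2 signal on utricle arrays 1 to 4, against 3.77, 3.59, 3.34 and 4.89 on cochlea arrays 1 to 4. The utricle arrays lay well above the cochlea arrays, of which 3 fell under the filter of 4. The DNAH5 signal in the utricle was higher by at least 14.2-fold (log2 difference 4.15, 95% CI 3.36 to 4.94; limma adjusted p = 1.47e-05), where "at least" means that values under 4 were raised to 4 before the fold was taken. Log2 differences, their intervals and p-values, here and below, used the values as deposited, also those under 4. DNAH9, the other outer arm heavy chain tested, averaged 8.88 ± 0.27 in the utricle and 6.97 ± 0.50 in the cochlea (log2 signal, SD, n = 4 arrays per tissue, as for all means below). That is a 3.76-fold higher signal in the utricle (limma adjusted p = 2.00e-04).

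The intermediate chains, which anchor the outer arm to the doublet, followed the same direction. DNAI2 read 7.55, 7.53, 7.66 and 7.87 in the utricle and 5.64, 5.51, 5.51 and 5.63 in the cochlea. All utricle arrays were above all cochlea arrays, and the spread within each tissue was small beside the gap. DNAI2 was 4.23-fold higher in the utricle (log2 difference 2.08, 95% CI 1.86 to 2.30; limma adjusted p = 4.11e-07). DNAI1 read 10.34, 9.30, 9.36 and 10.03 in the utricle and 7.47, 6.97, 6.47 and 7.10 in the cochlea. The arrays scattered within each tissue, yet the tissues did not overlap. The DNAI1 signal was 6.75-fold higher in the utricle (95% CI of the log2 difference 2.11 to 3.40; limma adjusted p = 5.14e-05).

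Of the inner dynein arm genes, DNAH3 and DNALI1 were higher in the utricle and DNAH1 was higher in the cochlea. DNAH3, an inner arm heavy chain, read 7.26, 7.29, 7.08 and 7.31 in the utricle and 5.71, 5.71, 5.89 and 6.23 in the cochlea. Every utricle array exceeded every cochlea array, a 2.56-fold difference (95% CI of the log2 difference 1.06 to 1.65; limma adjusted p = 3.39e-05). DNALI1, a light intermediate chain of the inner arm, read 8.64, 8.80, 8.63 and 8.85 in the utricle and 7.77, 7.53, 7.76 and 7.73 in the cochlea. It was 2.04-fold higher in the utricle without overlap (95% CI of the log2 difference 0.82 to 1.24; limma adjusted p = 2.32e-05).

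DNAH1, another inner arm heavy chain, read 4.36, 4.21, 4.18 and 4.90 in the utricle, against 5.21, 5.71, 5.52 and 5.64 in the cochlea. It was the exception among the dyneins: all cochlea arrays were above all utricle arrays, and the signal was 2.15-fold lower in the utricle (log2 difference -1.11, 95% CI -1.51 to -0.70; limma adjusted p = 8.22e-04). Its utricle values lie just above the filter of 4, and its probe set, like those of DNAH5 and DNAH3, carries the suffix that Affymetrix gives to probes shared with other transcripts. Which transcripts those are was not determined here. The same suffix and limit hold for SPAG1, SPAG9, IFT20 and some CCDC genes. They also hold for WDR69, RPGRIP1L and PKD2 among the genes of other names below.

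**Figure D2:**
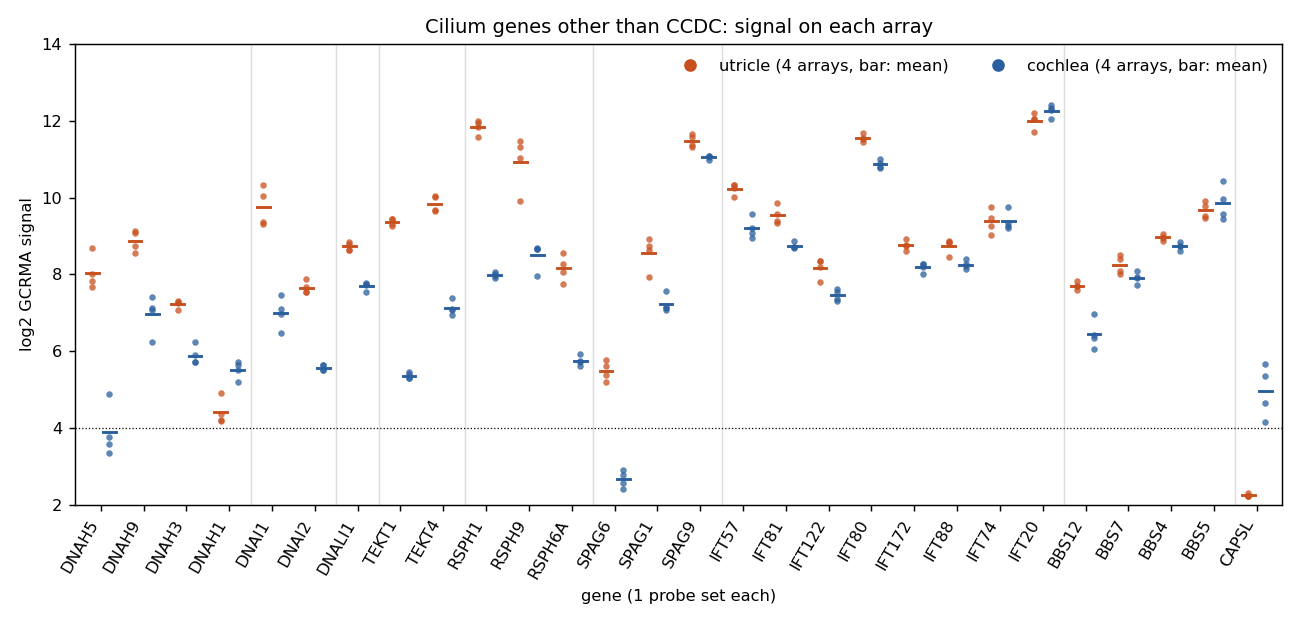
Log2 GCRMA signal of the 28 tested cilium genes other than CCDC genes on each array (points; bars: means of 4 arrays), with the utricle left of the cochlea for each gene and the filter of 4 as a dotted line. TEKT1 and RSPH1 show tight, widely separated tissues, DNAH1 and CAPSL lie the other way, and BBS5, BBS7, IFT20 and IFT74 overlap.

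Both tested tektins, which form filaments inside the doublet microtubules, were higher in the utricle. TEKT1 read 9.45, 9.30, 9.44 and 9.25 in the utricle and 5.29, 5.40, 5.47 and 5.30 in the cochlea. The gap of about 4 log2 units was far larger than the spread within either tissue. TEKT1 was 15.9-fold higher in the utricle (log2 difference 4.00, 95% CI 3.80 to 4.19; limma adjusted p = 5.64e-09), and its 3 tested probe sets gave log2 differences of 2.88 to 4.00. TEKT4 read 10.03, 9.68, 10.01 and 9.66 in the utricle and 7.06, 6.95, 7.11 and 7.38 in the cochlea. It was 6.60-fold higher in the utricle, again with no overlap (95% CI of the log2 difference 2.42 to 3.02; limma adjusted p = 5.30e-07).

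All 3 tested genes of the RSPH prefix, named for the radial spoke, were higher in the utricle. RSPH1, a spoke head protein, read 12.00, 11.59, 11.83 and 11.95 in the utricle and 7.97, 8.02, 8.07 and 7.91 in the cochlea. The cochlea arrays lay close together and far below every utricle array. RSPH1 was 14.4-fold higher in the utricle (log2 difference 3.85, 95% CI 3.61 to 4.08; limma adjusted p = 2.00e-08). RSPH6A read 8.07, 7.75, 8.26 and 8.57 in the utricle and 5.61, 5.74, 5.94 and 5.73 in the cochlea. The tissues did not overlap, and the signal was 5.31-fold higher in the utricle (95% CI of the log2 difference 2.03 to 2.79; limma adjusted p = 4.61e-06). The file's description of that probe set names a related spoke head protein, so which of these relatives it measures is uncertain. RSPH9, also of the spoke head, averaged 10.94 ± 0.70 in the utricle and 8.50 ± 0.35 in the cochlea, 5.42-fold higher in the utricle (limma adjusted p = 3.18e-04).

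The name SPAG (sperm-associated antigen) covers proteins with different roles, and all 3 tested members were higher in the utricle. SPAG6, a protein of the central pair, read 5.62, 5.78, 5.20 and 5.37 in the utricle and 2.90, 2.78, 2.56 and 2.41 in the cochlea. It passed the filter through the utricle only, where its signal was at least 2.82-fold higher (log2 difference 2.83, 95% CI 2.48 to 3.18; limma adjusted p = 1.13e-06). SPAG1, which takes part in assembling dynein arms in the cytoplasm, read 8.92, 7.92, 8.64 and 8.73 in the utricle and 7.58, 7.12, 7.14 and 7.08 in the cochlea. Utricle array 2 was the lowest of its tissue but still above every cochlea array, and the signal was 2.50-fold higher in the utricle (95% CI of the log2 difference 0.83 to 1.82; limma adjusted p = 9.05e-04). SPAG9, a scaffold of kinase signalling and vesicle transport and no part of the axoneme, averaged 11.48 ± 0.17 in the utricle and 11.05 ± 0.06 in the cochlea. Its 1.35-fold difference was the smallest of the prefix (limma adjusted p = 0.00606), and its 4 tested probe sets gave log2 differences of 0.04 to 0.72.

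Of the 8 tested intraflagellar transport genes with an IFT name, 6 were higher in the utricle and 2 were not called. Their log2 differences ran from -0.27 to 1.02, with a median of 0.63. Among all tested genes, 27.2% were called for the utricle and 27.3% for the cochlea. IFT57, a subunit of the IFT-B complex, read 10.34, 10.01, 10.25 and 10.33 in the utricle and 9.22, 8.96, 9.09 and 9.58 in the cochlea. Every utricle array exceeded every cochlea array, a 2.03-fold difference and the only one of the prefix of at least 2-fold (95% CI of the log2 difference 0.69 to 1.35; limma adjusted p = 3.78e-04). IFT80, also of IFT-B, read 11.68, 11.46, 11.54 and 11.53 in the utricle and 10.89, 11.00, 10.78 and 10.80 in the cochlea. It was 1.61-fold higher in the utricle (95% CI of the log2 difference 0.49 to 0.88; limma adjusted p = 1.71e-04). Its other tested probe set gave a log2 difference of 0.04, and with the mean of both probe sets IFT80 was not called (limma adjusted p = 0.147).

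The remaining called IFT genes showed differences of 1.40- to 1.73-fold, each without overlap of the tissues. The core IFT-B gene IFT81 was 1.73-fold higher in the utricle (9.54 ± 0.23 against 8.75 ± 0.09 in the cochlea; limma adjusted p = 5.68e-04). IFT172, the largest IFT-B subunit, was 1.49-fold higher (8.76 ± 0.13 in the utricle, 8.18 ± 0.12 in the cochlea; limma adjusted p = 0.00116). The core subunit IFT88, whose mouse mutants have short or missing cilia, was 1.40-fold higher in the utricle (8.74 ± 0.20, against 8.26 ± 0.11 in the cochlea; limma adjusted p = 0.00738). The tested gene of the IFT-A complex with an IFT name, IFT122, was 1.63-fold higher (8.17 ± 0.26 in the utricle, 7.46 ± 0.14 in the cochlea; limma adjusted p = 0.00266).

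IFT20, which also sits at the Golgi, was not called, at 11.99 ± 0.20 in the utricle against 12.27 ± 0.15 in the cochlea (log2 difference -0.27, 95% CI -0.55 to 0.01; limma adjusted p = 0.0935). With the replicate number as a block it was called lower in the utricle (limma adjusted p = 0.0257), as it was without cochlea array 4 (limma adjusted p = 0.0498). IFT74, a core IFT-B partner of IFT81, averaged 9.38 ± 0.30 in the utricle and 9.40 ± 0.25 in the cochlea. Its log2 difference of -0.02 had a 95% CI of -0.42 to 0.38, and its arrays overlapped (limma adjusted p = 0.944).

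Among the BBS genes, 2 of 4 were higher in the utricle and 2 were not called. The shares of all tested genes were 27.2% called for the utricle and 27.3% for the cochlea. BBS12, a chaperonin-like protein needed to assemble the BBSome, read 7.82, 7.69, 7.70 and 7.60 in the utricle and 6.98, 6.34, 6.05 and 6.42 in the cochlea. The tissues did not overlap, and BBS12 was 2.38-fold higher in the utricle (95% CI of the log2 difference 0.84 to 1.66; limma adjusted p = 3.94e-04). The 3 tested subunits of the BBSome with a BBS name differed little between the tissues. TTC8, a subunit of another name that was chosen after its values were seen, was 1.51-fold higher in the utricle (limma adjusted p = 0.00128).

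BBS4 read 8.96, 9.06, 8.88 and 8.97 in the utricle and 8.62, 8.85, 8.75 and 8.73 in the cochlea. These arrays lay close together without overlapping, and the 1.18-fold difference was called narrowly (log2 difference 0.23, 95% CI 0.05 to 0.42; limma adjusted p = 0.0393). The call of BBS4 was lost on leaving out a single array, whether utricle array 1, 2 or 4 or cochlea array 1, 3 or 4 (limma adjusted p of 0.0714 to 0.101), and its second probe set gave a log2 difference of -0.05. BBS7 averaged 8.25 ± 0.23 in the utricle and 7.91 ± 0.15 in the cochlea (limma adjusted p = 0.0577). BBS7 was called higher in the utricle with the replicate block (limma adjusted p = 0.0426), without utricle array 3 (0.0324) and without cochlea array 2 (0.0452). BBS5 averaged 9.67 ± 0.21 in the utricle and 9.85 ± 0.46 in the cochlea, where array 4 read 10.44 (log2 difference -0.18, 95% CI -0.68 to 0.32; limma adjusted p = 0.508).

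CAPSL, a calcium-binding protein resembling calcyphosine, was given as a marker of the group and stood apart from it. It read 2.22, 2.24, 2.30 and 2.24 in the utricle and 5.67, 4.64, 5.35 and 4.15 in the cochlea. All utricle arrays were at or near the lowest value of the scale, 2.22, and all cochlea arrays passed the filter. CAPSL was at least 1.93-fold lower in the utricle (log2 difference -2.70, 95% CI -3.37 to -2.03; limma adjusted p = 7.60e-05). The authors called it present on 0 of 4 utricle arrays and 4 of 4 cochlea arrays.

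The 60 tested CCDC genes were divided, with 23 higher in the utricle (38.3%), 16 higher in the cochlea (26.7%) and 21 not called. Their median log2 difference was 0.12, and 48 of the 60 differed by less than 1 log2 unit. A list of CCDC genes known from cilia, centrioles or basal bodies holds 12 of them, and of these 6 were higher in the utricle, 4 were higher in the cochlea and 2 were not called. CCDC37, 1 of the 6, passed the filter through the utricle only. Of the other 48, 17 were higher in the utricle, 12 were higher in the cochlea and 19 were not called. The list is not complete: CCDC46 and CCDC123, now CEP112 and CEP89, and CCDC52, a centriole protein, are among these 48. The cochlear share of 26.7% was near the 27.3% of all genes, and the utricular share of 38.3% stood beside 27.2%.

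The ruler proteins CCDC39 and CCDC40, which work as a pair to set the spacing of dynein arms and spokes along the doublet, went in opposite directions. CCDC39 averaged 6.93 ± 0.51 in the utricle and 4.71 ± 0.14 in the cochlea, 4.64-fold higher in the utricle (limma adjusted p = 5.57e-05). CCDC40 read 7.29, 6.58, 7.03 and 7.38 in the utricle and 9.68, 9.63, 9.54 and 9.72 in the cochlea. All cochlea arrays were above all utricle arrays, and CCDC40 was 5.94-fold lower in the utricle (log2 difference -2.57, 95% CI -2.95 to -2.19; limma adjusted p = 3.00e-06). The single CCDC40 probe set has the suffix for probes shared with other transcripts, and whether its signal is all from CCDC40 was not tested.

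Other ciliary CCDC genes higher in the utricle included CCDC19 and CCDC37. CCDC19, an axonemal protein, averaged 7.16 ± 0.48 in the utricle and 4.66 ± 0.52 in the cochlea (5.69-fold; limma adjusted p = 1.37e-04). CCDC37, which is needed for inner dynein arms in algae, averaged 5.29 ± 0.78 in the utricle and 2.36 ± 0.10 in the cochlea (at least 2.45-fold; limma adjusted p = 1.05e-04). It passed the filter through the utricle only, so a difference was bound to appear. On the cochlear side, CCDC104, whose current symbol in RefSeq is CFAP36, averaged 9.05 ± 0.14 in the utricle and 10.02 ± 0.15 in the cochlea, 1.96-fold lower in the utricle (limma adjusted p = 8.36e-05).

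CCDC genes outside that list were among the 6 of smallest adjusted p in the utricle direction too. CCDC99, a spindle and kinetochore protein in human cells, read 9.81, 9.98, 9.85 and 9.94 in the utricle and 7.79, 7.96, 7.60 and 7.27 in the cochlea. The tissues were far apart, and CCDC99 was 4.72-fold higher in the utricle (95% CI of the log2 difference 1.91 to 2.56; limma adjusted p = 2.79e-06). CCDC125 read 5.88, 5.72, 5.68 and 5.36 in the utricle and 3.86, 4.13, 3.99 and 4.11 in the cochlea, at least 3.03-fold higher in the utricle (95% CI of the log2 difference 1.35 to 1.92; limma adjusted p = 7.87e-06). CCDC46, now CEP112 and a centrosomal protein by its current name, averaged 7.95 ± 0.29 in the utricle and 5.63 ± 0.35 in the cochlea (5.01-fold; limma adjusted p = 1.80e-05).

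In the cochlea's favour, CCDC30 read 8.28, 8.65, 8.08 and 8.39 in the utricle and 9.58, 9.62, 9.46 and 9.38 in the cochlea. Its arrays did not overlap, and it was 2.23-fold lower in the utricle (95% CI of the log2 difference -1.45 to -0.87; limma adjusted p = 7.95e-05). CCDC126 was 2.03-fold lower in the utricle (8.37 ± 0.13 in the utricle, 9.39 ± 0.27 in the cochlea; limma adjusted p = 3.29e-04). CCDC82 and CCDC75 (now GPATCH11) were each 1.81-fold lower, CCDC82 with 7.02 ± 0.25 in the utricle against 7.88 ± 0.12 in the cochlea, CCDC75 with 10.00 ± 0.16 in the utricle against 10.86 ± 0.23 in the cochlea (limma adjusted p = 6.31e-04 for CCDC82 and 7.26e-04 for CCDC75).

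**Figure D3:**
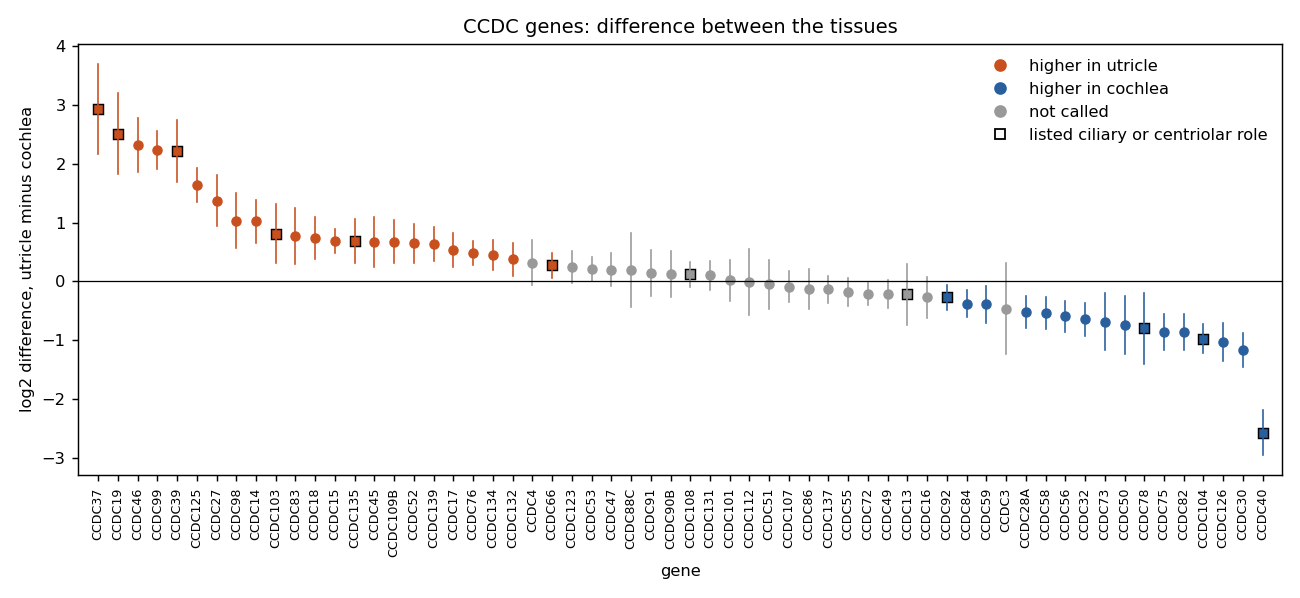
Log2 difference, utricle minus cochlea, of the 60 tested CCDC genes with 95% confidence intervals, in order of the difference; squares with a black edge mark the 12 genes on the list of ciliary and centriolar CCDC genes. CCDC37, CCDC19 and CCDC39 lie at the upper end and CCDC40 alone at the lower end, and the other squares are scattered along the order. CCDC37 passed the filter through the utricle only.

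The remaining 44 of the 132 cilium genes did not pass the signal filter and were not tested. Their nearest members to the filter were DNAH7, which reached 4.64 on its highest array, and CCDC21, which reached 4.61, but each was above 4 on fewer than 4 arrays. CCDC137, tested and just past the filter, ran from 3.89 to 4.27 in the utricle and from 4.27 to 4.35 in the cochlea. The authors' deposited table gives for each probe set the number of arrays per tissue on which it was called present. For a gene with several probe sets, the highest count in each tissue and the highest signal were taken, which may come from different probe sets. By that count 16 of the 44 genes had more present calls in the utricle, 2 had more in the cochlea (CCDC41 and CCDC60) and 26 had equal numbers, 19 of them never called present. Among all 6051 dim named genes, 17.7% had more present calls in the utricle and 16.8% had more in the cochlea.

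Of the 15 dim genes that are not CCDC genes, 7 had more present calls in the utricle, 0 had more in the cochlea and 8 had equal numbers. The inner arm heavy chains DNAH7 and DNAH10 were each called present on 3 utricle arrays and 0 cochlea arrays. DNAL1, a light chain of the outer arm, was present on 4 utricle arrays and 1 cochlea array, and the central pair gene SPAG16 on 3 utricle arrays and 1 cochlea array. BBS10, another chaperonin-like protein, was present on 3 utricle arrays and 0 cochlea arrays. IFT140, of the IFT-A complex, and TEKT3 were each present on 1 utricle array and 0 cochlea arrays. DNAH12 with 3 arrays in each tissue and BBS9 with 4 in each showed no difference in calls, and DNAH8, DNAH17, RSPH3, SPAG4, TEKT2 and TEKT5 were never called present. These are detection calls without a test. The highest signal on any array was 2.60 for DNAH10, 2.49 for BBS10, 2.26 for SPAG16 and 2.25 for TEKT3. These values are near the lowest value of the scale, 2.22. DNAH7 reached 4.64, and DNAL1 and IFT140 each reached 3.94.

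**Figure D4:**
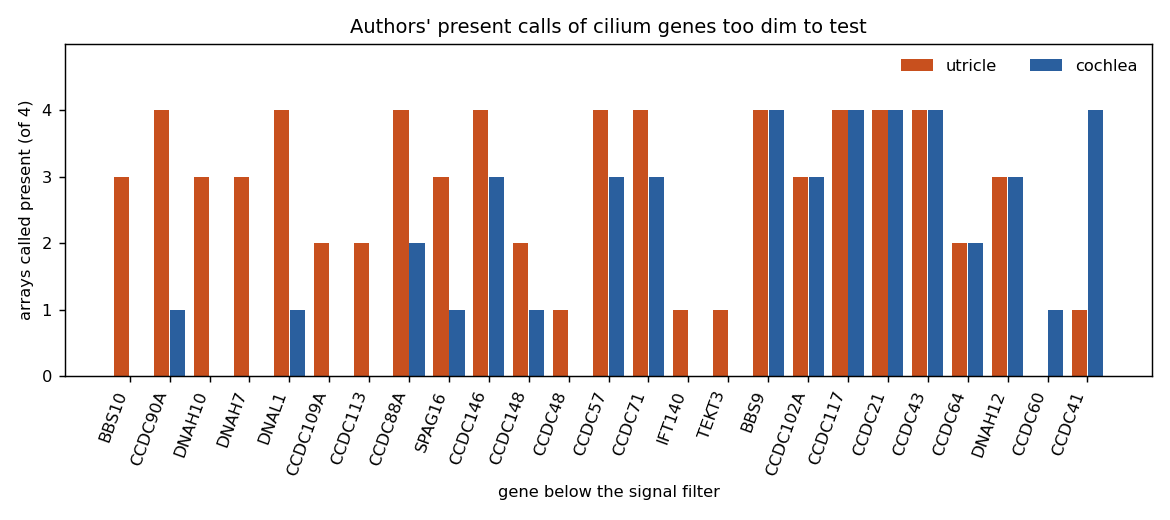
Number of arrays of 4 on which the authors called a gene present (highest count over its probe sets in each tissue), utricle left of cochlea, for the 25 dim cilium genes with any present call. Bars of the utricle are taller for 16 genes, those of the cochlea for CCDC60 and CCDC41.

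Genes of other names that are linked to cilia, many to the axoneme or to motile cilia, were set beside them. This motile cilium list was chosen with earlier results of these data known, and it also holds genes not confined to motile cilia. Of the 54 tested genes of that list, 41 were higher in the utricle (75.9%), 1 was higher in the cochlea and 12 were not called, with a median log2 difference of 1.08. Among all tested genes, 27.2% were called for the utricle and 27.3% for the cochlea. Of the 41, 4 genes, TPPP3 and MAK among them, passed the filter through the utricle only, and for these a difference was bound to appear. WDR69, which helps to deliver outer dynein arms, was 21.8-fold higher in the utricle (10.12 ± 0.25, against 5.68 ± 0.21 in the cochlea; limma adjusted p = 7.50e-08). EFCAB1, a calcium-binding protein of the outer arm, was 4.74-fold higher (limma adjusted p = 8.51e-08). Of the genes that passed through the utricle only, TPPP3, which binds and bundles microtubules, had a signal at least 19.6-fold higher (utricle 8.30 ± 0.46, against 2.40 ± 0.26 in the cochlea). MAK, a kinase of cilia, was higher by at least 3.54-fold (utricle 5.82 ± 0.24, against 2.82 ± 0.00 in the cochlea).

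The gene of this list that was higher in the cochlea was TCTE1, a subunit of the complex that links neighbouring doublets. It averaged 7.97 ± 0.31 in the utricle and 10.03 ± 0.14 in the cochlea, 4.17-fold lower in the utricle (limma adjusted p = 7.98e-06). RFX3, a transcription factor of cilium genes that was chosen after its values were seen, was 2.09-fold higher in the utricle (8.99 ± 0.47, against 7.92 ± 0.36 in the cochlea; limma adjusted p = 0.00718). RFX2 and RFX4 stayed at or near the lowest value of the scale, with highest values of 2.25 in the utricle for RFX2 and 2.22 elsewhere.

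Transport, transition zone and ciliopathy genes of other names were chosen in the same way. Of 55 tested, 30 were higher in the utricle (54.5%), 5 were higher in the cochlea (9.09%) and 20 were not called, with a median log2 difference of 0.46. The shares of all tested genes were 27.2% for the utricle and 27.3% for the cochlea. A single gene of the list passed the filter through the utricle only. TTC21B, an IFT-A subunit, was 2.73-fold higher in the utricle (9.74 ± 0.15, against 8.29 ± 0.16 in the cochlea; limma adjusted p = 8.30e-06). RPGRIP1L, of the transition zone, was 2.11-fold higher (7.80 ± 0.12 in the utricle, 6.72 ± 0.17 in the cochlea; limma adjusted p = 4.76e-05).

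The cochlea-higher genes of this list included CEP41, needed for tubulin glutamylation of the axoneme, which was 2.79-fold lower in the utricle (10.50 ± 0.20, against 11.97 ± 0.14 in the cochlea; limma adjusted p = 1.27e-05). PKD2, a ciliary cation channel, was 3.06-fold lower in the utricle (7.19 ± 0.27, against 8.81 ± 0.39 in the cochlea; limma adjusted p = 2.19e-04). MKKS, a chaperonin-like partner of BBS10 and BBS12, was 1.99-fold lower and ALMS1, a protein of the basal body, was 1.54-fold lower (limma adjusted p = 0.00111 for MKKS and 0.00227 for ALMS1).

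**Figure D5:**
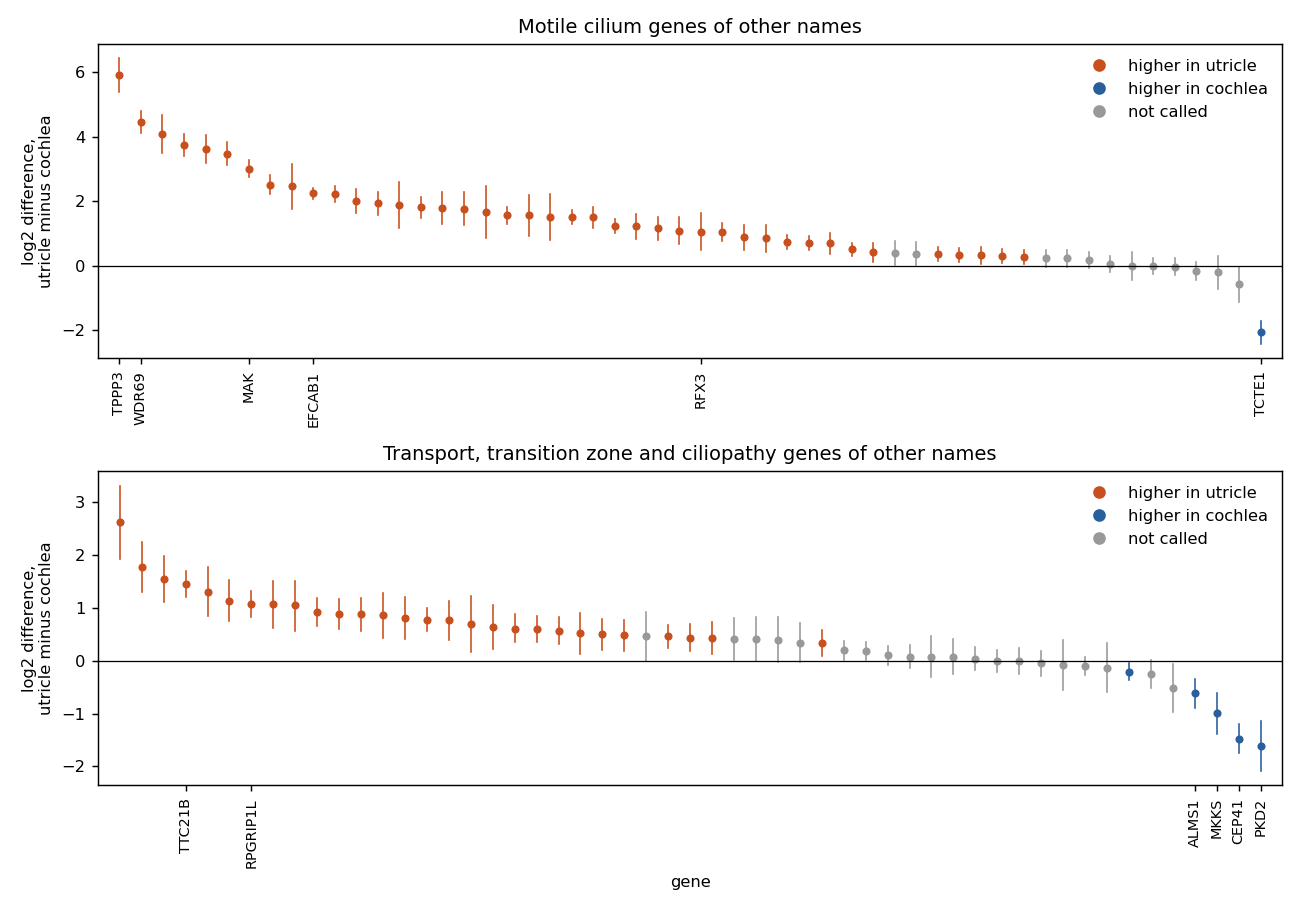
Log2 difference, utricle minus cochlea, with 95% confidence intervals, of 54 genes of the motile cilium list (upper panel) and 53 of the 55 transport, transition zone and ciliopathy genes (lower panel) of other names, with names at the genes given in the text other than TTC8. Most of the upper panel lies above 0 with TCTE1 as the called exception, and the lower panel crosses 0 with CEP41 and PKD2 at its low end.

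Markers of the cell types in the dissected tissue differed between the organs as well. The marker counts below stand beside 27.2% of all tested genes called for the utricle and 27.3% called for the cochlea. The hair cell list had 13 of its 21 genes tested, with 5 higher in the utricle against 6 higher in the cochlea. Its summed signal was 15.4 to 15.7 on the utricle arrays and 13.2 to 13.7 on the cochlea arrays (log2 of the sum). In this and the sums below the brightest genes weigh most. As levels of different probe sets are not comparable, a sum does not measure the amount of a cell type. In the hair cell list CALB2, a calcium buffer, averaged 14.70 ± 0.05 in the utricle against 8.77 ± 0.22 in the cochlea. The hair cell markers LHX3 and PCDH15 did not pass the filter. The supporting cell list had 12 of 14 tested, with 6 higher in the utricle (1 of which passed the filter through the utricle only) against 4 higher in the cochlea, and a summed signal of 17 on the utricle arrays and 17 to 17.2 on the cochlea arrays. Their part in the differences of the cilium genes was not tested.

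A list drawn up for secretory cells of a ciliated mucosa had 4 of 15 genes tested, with 3 higher in the utricle (AGR3, AGR2 and CDHR3) and 1 higher in the cochlea (LTF). Of these, CDHR3 and AGR3 are also known from ciliated airway cells. The summed signal of the 4 tested genes was 14.9 to 15.2 on the utricle arrays and 12.3 to 12.7 on the cochlea arrays. AGR3 had the brightest probe set of the 4 and weighed most in the sum, with 14.90 ± 0.12 in the utricle against 12.45 ± 0.17 in the cochlea. MUC1 and SPDEF were at the lowest value of the scale, 2.22, on every array, and TFF2 reached 3.18 in the utricle and 4.89 in the cochlea. Their part in the result was not tested.

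Genes listed as markers of other tissues also differed, beside shares of 27.2% and 27.3% of all tested genes called for the utricle and the cochlea. Of 5 neuronal markers tested out of 14, 1 was higher in the utricle and 3 were higher in the cochlea (summed signal 11.9 to 12.5 in the utricle, 14.4 to 14.7 in the cochlea). The 3 were NEFM, NEFL and ISL1, while SNAP25 was higher in the utricle and ELAVL4 was not called. ISL1, the brightest of the 5, averaged 11.90 ± 0.33 in the utricle and 13.86 ± 0.22 in the cochlea. For leukocytes, 4 of 10 were tested and all 4 were higher in the utricle (12.0 to 12.3 in the utricle, 10.7 to 11.1 in the cochlea), with PTPRC and SPI1 under the filter. For melanocytes, 5 of 9 were tested and 4 were higher in the utricle (13.4 in the utricle, 12.8 to 13.0 in the cochlea), with MLANA and TYRP1 under the filter. The brightest of these 5, SOX10, was not called (12.43 ± 0.13 in the utricle, 12.59 ± 0.10 in the cochlea). Both tested muscle markers, of 10 listed, were higher in the cochlea (8.61 to 9.07 in the utricle, 10.9 to 11.2 in the cochlea), with DES, MYL1 and TTN under the filter. Of 3 endothelial markers tested from 10, 1 was higher in the utricle and 2 favoured the cochlea (10.8 to 11.4 in the utricle, 10.9 to 11.2 in the cochlea), with CDH5, KDR and VWF among those under the filter. Of 2 fibroblast markers tested from 10, 1 was higher in the utricle and 1 was not called (8.30 to 9.89 in the utricle, 6.61 to 9.04 in the cochlea). Some of these calls come from genes that passed the filter through a single tissue: 1 leukocyte and 2 melanocyte markers through the utricle, and 1 neuronal marker through the cochlea. Whether the signal of a marker came from such cells, and the part of these cells in the result, was not tested.

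Genes with several probe sets allow a check within the arrays. Of the 30 cilium genes with more than 1 tested probe set, 24 had the same sign on all of them and 6 had differing signs, and for 0 genes were probe sets called in both directions. Of the 45 genes higher in the utricle, 34 are listed as higher there in the authors' deposited table, and of the 18 higher in the cochlea, 12 are listed as higher there, with 0 listed in the opposite direction. That table holds probe sets with a fold of at least 1.5, and it was made from the same 8 arrays, so it is not an independent check. In the authors' deposited table the fold of TEKT1 is 15.76, of RSPH1 14.28, of DNAH5 18.54, of CCDC40 5.85 and of CAPSL 7.36, all without the floor of 4 used here.

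Among the arrays of a tissue, utricle array 2 was the one whose cilium genes lay lowest. Of the 28 genes other than CCDC genes, 8 were above the utricle mean on that array, and the median deviation was -0.12 log2 units, while the other utricle arrays had medians of -0.01 to 0.10. The cochlea arrays had medians of -0.04 to 0.02. The arrays numbered 1 carry a different prefix in the array names of the workbook, and between these alone 80 of the 88 cilium genes (90.9%) had the same direction as between the others, as did 87.8% of all tested genes. Of the 28 genes other than CCDC genes, 27 kept that direction.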

How the data were processed

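The authors made the deposited log2 values with GCRMA, per the submitters' processing notes; its version is not given in the sources used here. The deposited workbook, per its headers, holds the authors' SAM comparison, in which the fold change is a ratio of the brighter to the dimmer tissue, and their present calls per tissue. A further 144 columns per array of the workbook were not used. Of the probe sets on the array, 96 controls and 15117 without a gene name in the sheet were left out, leaving 23322, of which 18318 matched a RefSeq gene (assembly GRCg7b, used for names only). No sequences are shown.

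The members and gene lists were chosen with earlier results of these data known. Linear models of limma 3.58.1 (R 4.3.3; lmFit, then eBayes) gave the difference of utricle minus cochlea with two-sided tests, Benjamini-Hochberg adjustment ran over all tested genes, and an adjusted p under 0.05 was a call. The limma fit was tested on simulated data, in which the array values were drawn independently of each other. Python 3.11.15 with pandas 2.3.3 made the tables and matplotlib 3.10.9 the plots. Ranges are 95% confidence intervals, and errors are SDs. Where an array of the dimmer tissue was under 4, values under 4 were raised to 4 and the fold is a lower bound. This was done for the fold only, so log2 differences, intervals and p-values of such genes rest in part on values under 4.

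All tested genes of the smaller prefixes are named, with the 6 CCDC genes of smallest adjusted p in each direction and up to 4 genes per direction of each cilium list; 2 genes of a list are counted but not reported here by name. Deviations from the tissue means correlated at 0.552, 0.480, 0.404 and 0.144 for arrays numbered 1 to 4, each over 0.1, so the numbers may pair the samples; every value printed is from the fit without the block, unless the block is named. What the number means is not in the labels, and for cochlea array 4 the closest match was utricle array 3 (0.304). Alternatives were other filters, normalizations, variance models, probe set rules, names, a replicate block and left-out arrays. The block on the array name prefix and the fit without utricle arrays 2 and 3 were chosen after seeing the data.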

Additional observations from a re-analysis of the deposited data

Results flagged for a closer look

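Within the tissues, 80 groups of 4 array values were examined (40 named cilium genes in each tissue), and 5 of them (6.25%) held an array far from the other 3; chance alone gives about 5%. DNALI1 was low on cochlea array 2 (7.53, nearest other array 7.73), and RSPH9 was low on cochlea array 1 (7.97, nearest 8.65). Cochlea array 1 also read high for IFT81 (8.88, nearest 8.71) and for SPAG1 (7.58, nearest 7.14). In the utricle, array 2 read low for IFT88 (8.44, nearest 8.83). None of these arrays crossed into the range of the other tissue, and without each of them the genes kept their direction and their call.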

How the results depend on the processing

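Of 51 named genes, 45 kept direction and call in every alternative that tested them, 4 changed call (BBS4, BBS7, IFT80 and IFT20) and 2 changed direction. The CCDC genes and the list genes among the 51 were named for a small adjusted p in the main fit, so their calls were likely to persist. Leaving out 1 array moved the log2 difference of BBS5 over -0.32 to 0.01, above 0 without cochlea array 4, and that of IFT74 over -0.14 to 0.10. IFT74 had 0.02 with array weights and without utricle array 2, 0.10 without utricle array 3 and without cochlea array 1, and 0.21 without utricle arrays 2 and 3; the cause was not tested. At least a 2-fold difference, a stricter rule, left 24 cilium genes for the utricle and 5 for the cochlea (all genes 930 and 834). Counting each probe set apart gave 4286 and 4066 of 16223 probe sets, since more features were tested. Of these, 132 were probe sets of the 88 tested cilium genes, with 63 called for the utricle and 20 for the cochlea. With no filter the median was 0.14, as the dim genes entered. Leaving out 1 array gave 42 to 46 cilium genes higher in the utricle, 13 to 17 in the cochlea and a median of 0.29 to 0.40 (all genes 1995 to 2228 and 1994 to 2129). The replicate block gave 47 and 19 cilium genes (all genes 2543 and 2536) and, beside IFT20 and BBS7, changed no call of a named gene. Dim signal near the scale's lowest value limits what can be tested.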
